A study of Homo sapiens with 16 samples.

Results

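In NCI-H929 cells, a human multiple myeloma line, 4 of 57500 measured genes were examined because they moved one way with a degrader of p300 and the other way in cells labelled p300 KO. They were picked by name for that pattern: DHRS2, TAS1R3 and TAFA5 were higher with the degrader than in its control and lower in the p300 KO than in its control, and DMBT1 did the reverse. The bulk RNA sequencing comprised 16 libraries. Cells of the first experiment received 3 nM of p300 degrader 27 for 6 h (4 libraries, "degrader") or the solvent DMSO (4 libraries). Cells of the second were labelled p300 KO (4 libraries) or NTC (4 libraries), with no drug named. The labels put every library in batch 1 and give neither the method of the knockout, the number of clones, nor whether replicates were separate cultures, so a p-value here speaks only of the spread among these libraries, which may be technical.

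The protein p300, encoded by EP300, is an acetyltransferase that marks histones at enhancers and promoters and serves as a coactivator of transcription; CREBBP encodes its close relative CBP. A degrader removes existing protein, whereas a knockout changes the gene itself. The genes described here belong to unrelated families. DHRS2 encodes a short-chain dehydrogenase/reductase (SDR) that is reported to bind MDM2, and it is a known target of histone deacetylase inhibitors in cultured cells. TAS1R3 is the shared subunit of the sweet and umami taste receptors and, paired with TAS1R1, a sensor of amino acids upstream of the kinase complex mTORC1. TAFA5 encodes a secreted, chemokine-like protein known mainly from the brain. DMBT1 encodes a large glycoprotein of mucosal secretions, built of scavenger receptor cysteine-rich (SRCR) domains, that binds bacteria.

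Depth lay between 12.6 M and 23.1 M counts a library (M is mega), and levels are given in CPM (counts scaled to a common library size). By raw totals, 3 counts, the limit that a count of 0 allows, corresponded to 0.130 to 0.238 CPM. The levels reported here carry a further scaling between libraries (TMM), on which this limit differs. In degrader replicate 2 it is above that range, as 5 counts of DMBT1 gave 0.927 CPM there. Mitochondrially encoded genes took 64.9% of counts in degrader replicate 2 and 47.7% in p300 KO replicate 1, against 5.99 to 23.5% elsewhere, so results are also given without these libraries. The other degrader libraries had 5.99 to 6.96% and the DMSO libraries 13.4 to 23.5%, so those groups still differ in this share. The other p300 KO libraries had 10.2 to 11.4% and the NTC libraries 8.91 to 10.3%. EP300 RNA ran from 31.2 to 41.2 CPM in p300 KO libraries and from 83.9 to 92.7 CPM in NTC libraries. Markers of plasma cells, the origin of myeloma, summed to between 9400 and 16900 CPM over all libraries, and none of the 12 was at 0 in all of them.

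All 4 genes are on the plus strand and protein-coding in GRCh38. DHRS2 (ENSG00000100867) lies at chr14:23630115-23645639, TAS1R3 (ENSG00000169962) at chr1:1331314-1335306, TAFA5 (ENSG00000219438) at chr22:48489460-48850912 and DMBT1 (ENSG00000187908) at chr10:122560665-122643736. TAFA5 is on the same chromosome arm as EP300. The 250 bases before each gene's start in RefSeq (GRCh38.p14, plus strand) are printed to show the control regions of the genes side by side. They are chr14:23629865-23630114 for DHRS2, chr1:1331030-1331279 for TAS1R3, chr22:48489303-48489552 for TAFA5 and chr10:122560504-122560753 for DMBT1. Capitals mark TATAAA or GGGCGG on either strand (read on the minus strand as TTTATA for the first and as CCGCCC for the second), and no 2 matches overlap.
DHRS2: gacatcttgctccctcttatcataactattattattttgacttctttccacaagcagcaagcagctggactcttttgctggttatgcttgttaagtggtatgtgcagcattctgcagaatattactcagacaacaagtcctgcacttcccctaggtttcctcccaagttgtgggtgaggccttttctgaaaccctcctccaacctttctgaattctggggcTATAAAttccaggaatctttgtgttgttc
TAS1R3: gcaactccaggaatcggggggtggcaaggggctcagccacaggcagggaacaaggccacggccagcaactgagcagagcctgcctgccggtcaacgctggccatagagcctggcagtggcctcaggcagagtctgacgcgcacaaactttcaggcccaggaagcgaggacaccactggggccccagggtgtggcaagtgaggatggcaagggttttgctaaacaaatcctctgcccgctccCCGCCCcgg
TAFA5: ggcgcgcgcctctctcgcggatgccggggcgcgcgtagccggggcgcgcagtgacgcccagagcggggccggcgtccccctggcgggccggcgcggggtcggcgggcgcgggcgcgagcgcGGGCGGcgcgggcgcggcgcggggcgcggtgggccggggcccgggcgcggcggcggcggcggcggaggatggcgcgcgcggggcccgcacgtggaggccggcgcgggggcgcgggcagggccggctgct
DMBT1: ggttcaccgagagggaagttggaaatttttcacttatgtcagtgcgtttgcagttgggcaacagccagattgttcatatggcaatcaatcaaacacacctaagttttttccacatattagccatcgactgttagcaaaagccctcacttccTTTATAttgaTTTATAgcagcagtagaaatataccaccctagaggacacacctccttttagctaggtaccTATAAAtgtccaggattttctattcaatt
DHRS2 and DMBT1 hold TATAAA 29 bases before the start, at the place of a classical TATA box, and DMBT1 also holds it on the minus strand 99 and 89 bases before the start. TAS1R3 and TAFA5 hold GGGCGG, the core of a GC box, 9 and 129 bases before the start. Over the 300-base windows (250 bases before to 50 after the start), the GC content was 44.0% for DHRS2, 65.0% for TAS1R3, 87.7% for TAFA5 and 40.7% for DMBT1, against a median of 58.7% over 35114 RefSeq promoters. The same windows held 0, 12, 67 and 3 CpG dinucleotides in that order of genes. TATAAA occurred in 11.5% of all the promoters and GGGCGG in 45% of them. Other motifs searched on both strands had no match in the windows of these genes. TGANTCA, bound by AP-1, occurred in 7.71% of all promoters, the cyclic AMP response element TGACGTCA in 1.85%, the CCAAT box in 34.6% and GCGTGGGCG, bound by EGR factors, in 0.795%. TAFA5 has 2 starts in RefSeq, and the window that holds the start used in the count files was taken. For TAFA5 and DMBT1 the gene model of the count files begins inside the printed stretch.

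DHRS2, the reductase, had a level of 15.6, 9.08, 12.6 and 13.4 CPM in the degrader libraries, against 3.48, 4.74, 3.17 and 2.82 CPM in the DMSO libraries. In the other experiment it had 3.34, 4.93, 4.10 and 4.22 CPM in the p300 KO libraries, against 11.7, 11.9, 15.6 and 13.4 CPM in the NTC libraries. In neither experiment did the groups overlap, and the mitochondria-rich libraries, degrader replicate 2 and p300 KO replicate 1, had the lowest value of their group. In bulk RNA such a difference cannot be told apart from one in the share of cells that express the gene. The log2 fold change was 1.85 ± 0.21 with the degrader and −1.60 ± 0.13 in the p300 KO (SE, n = 4 libraries per group throughout). This is 3.62-fold higher with the degrader than in DMSO and 3.04-fold lower in the p300 KO than in NTC. Without the mitochondria-rich libraries these log2 fold changes were 1.95 ± 0.16 and −1.56 ± 0.11.

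TAS1R3, the taste receptor subunit, had 18.0, 12.6, 18.1 and 15.8 CPM with the degrader, against 5.76, 5.45, 4.37 and 5.47 CPM in DMSO. It had 15.5, 20.8, 18.7 and 18.2 CPM in the p300 KO, against 27.7, 31.2, 29.5 and 32.9 CPM in NTC. Every degrader library lay above every DMSO library and every p300 KO library below every NTC library. The log2 fold change was 1.63 ± 0.15 with the degrader, a 3.1-fold higher level, and −0.68 ± 0.08 in the p300 KO, a 1.6-fold lower level. Without the mitochondria-rich libraries, the lowest TAS1R3 value of each of their groups, they were 1.71 ± 0.12 and −0.64 ± 0.07.

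TAFA5, the secreted chemokine-like protein, had 6.47, 4.08, 7.76 and 6.32 CPM with the degrader, against 1.74, 1.78, 1.5 and 1.79 CPM in DMSO. Its level was 5.64, 5.13, 5.94 and 5.13 CPM in the p300 KO, against 10.3, 9.55, 8.02 and 9.11 CPM in NTC. The groups were again apart in both experiments, and DMSO was the tightest of the TAFA5 groups in absolute terms, with a standard deviation of 0.138 CPM. The log2 fold changes were 1.88 ± 0.21 with the degrader and −0.71 ± 0.11 in the p300 KO. These are a 3.68-fold higher and a 1.64-fold lower level, and without the mitochondria-rich libraries the log2 values were 2.00 ± 0.17 and −0.76 ± 0.11.

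DMBT1, the mucosal scavenger protein, ran the other way. Its level was 0.107, 0.927, 0.198 and 0.263 CPM with the degrader, against 1.14, 1.17, 1.86 and 1.52 CPM in DMSO. These rest on 2, 5, 4 and 5 counts with the degrader and 19, 23, 31 and 28 counts in DMSO, so single counts weigh heavily there. The summed counts were 16 with the degrader and 101 in DMSO, a ratio scaled to library size of 0.179 with an exact 95% interval of 0.0984 to 0.304 that covers counting error only. In the p300 KO DMBT1 had 30.0, 32.6, 29.3 and 28.6 CPM, against 19.0, 16.7, 16.2 and 18.9 CPM in NTC. The groups did not overlap in either experiment. The highest DMBT1 value with the degrader, in replicate 2, came from the mitochondria-rich library. The log2 fold change was −2.30 ± 0.54 with the degrader, the widest error of the 8 member values, and 0.82 ± 0.09 in the p300 KO, a 1.77-fold higher level. Without the mitochondria-rich libraries they were −2.86 ± 0.41 and 0.78 ± 0.07, and leaving out degrader replicate 1 brought the degrader value to −1.93.

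**Figure D1:**
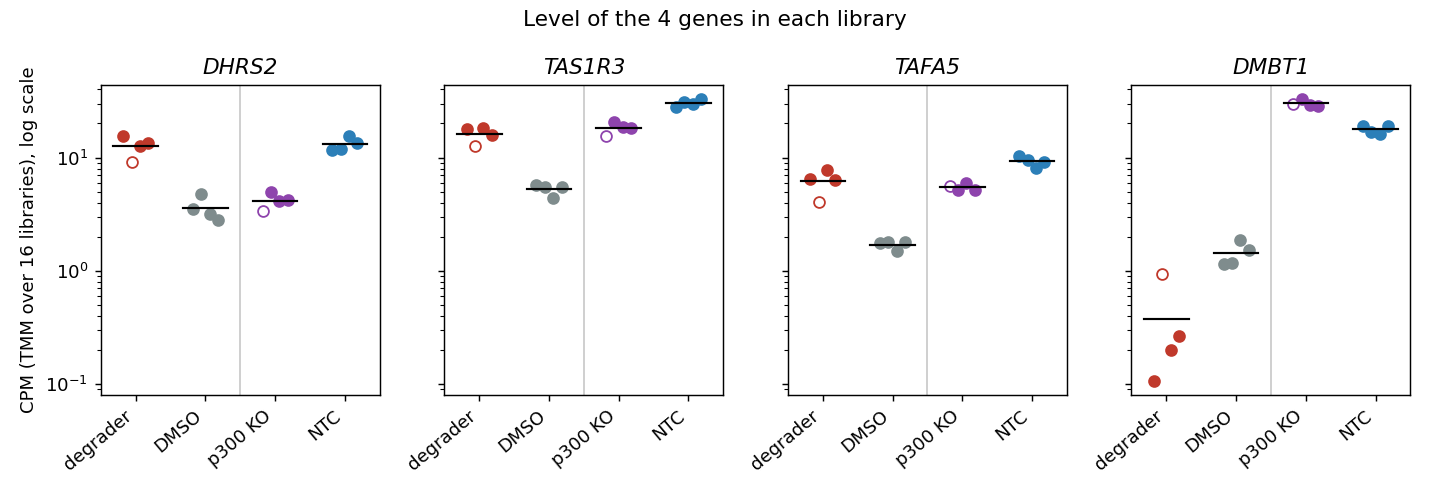
Level of each gene in each library in CPM on a log axis, scaled over all 16 libraries. Points are libraries, horizontal lines are group means, and open points are the mitochondria-rich libraries degrader replicate 2 and p300 KO replicate 1. DHRS2, TAS1R3 and TAFA5 were higher with the degrader than in DMSO and lower in the p300 KO than in NTC; DMBT1 stood at 28.6 to 32.6 CPM in the p300 KO and below 1 CPM in every degrader library.

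These values chose the genes, so no test is given for them. As background, 4.76% of 15872 genes tested were called with the degrader and 17.0% of 17350 in the p300 KO (edgeR, quasi-likelihood, at a Benjamini-Hochberg adjusted p below 0.05). Groups did not overlap in the higher direction for 7.01% of genes with the degrader and in the lower direction for 9.68%. Shares in the p300 KO were 9.06% for higher and 18.5% for lower genes. A log2 fold change at least as large in absolute size was found in 0.662% of genes for DHRS2, 1.12% for TAS1R3, 0.617% for TAFA5 and 0.296% for DMBT1 with the degrader. For the p300 KO they were 2.21% for DHRS2, 14.6% for TAS1R3, 13.4% for TAFA5 and 10.6% for DMBT1. The 4 genes thus stood near the edge of the degrader distribution, and of them DHRS2 alone was among the most changed few percent of the p300 KO distribution.

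The control groups were far apart for the same genes. DHRS2 averaged 13.1 ± 1.8 CPM in NTC and 3.55 ± 0.836 CPM in DMSO (SD, n = 4 each). TAS1R3 averaged 30.3 ± 2.25 CPM in NTC and 5.27 ± 0.612 CPM in DMSO. TAFA5 averaged 9.25 ± 0.958 CPM in NTC and 1.7 ± 0.138 CPM in DMSO. DMBT1 averaged 17.7 ± 1.48 CPM in NTC and 1.42 ± 0.336 CPM in DMSO. All 4 genes were thus higher in NTC, with log2 fold changes of 1.87 ± 0.15 for DHRS2, 2.52 ± 0.10 for TAS1R3, 2.43 ± 0.14 for TAFA5 and 3.63 ± 0.14 for DMBT1.

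The baseline difference was not particular to these genes. Between NTC and DMSO, 68.9% of 17248 genes tested were called, 35.3% higher and 33.5% lower in NTC, and the groups did not overlap in the higher direction for 32.8%. A difference at least as large in absolute size was found in 6.6% of genes for DHRS2, 2.92% for TAS1R3, 3.3% for TAFA5 and 0.904% for DMBT1. NTC and DMSO belong to separate experiments, so the control type and the experiment cannot be told apart, and the contrast uses the same libraries as the fold changes above.

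**Figure D2:**
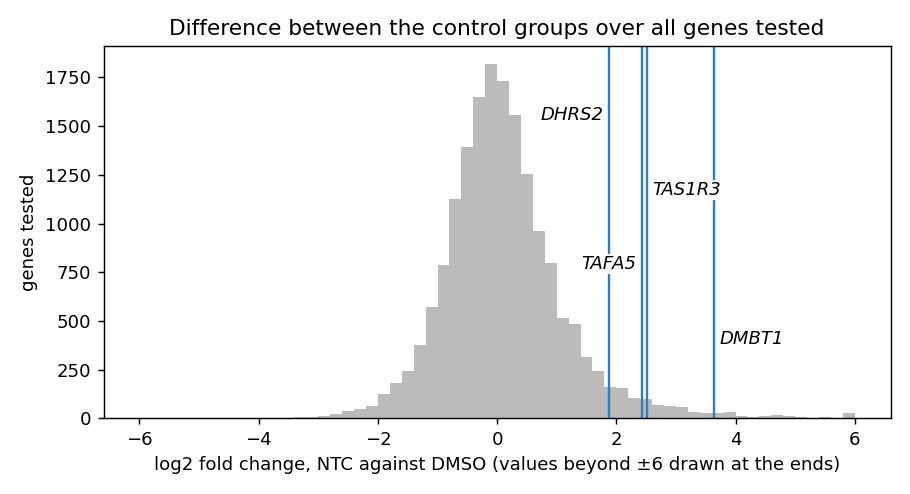
Number of genes tested (y axis) by log2 fold change of NTC against DMSO (x axis), with lines at the values of DHRS2 (1.87), TAFA5 (2.43), TAS1R3 (2.52) and DMBT1 (3.63). All 4 lines lie on the upper side of a distribution whose median was 0.02.

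On one scale, NTC had the highest mean and DMSO the lowest for DHRS2, TAS1R3 and TAFA5, but not for DMBT1. For DHRS2, the degrader level of 12.7 ± 2.7 CPM overlapped that of NTC (0.965 of it), and the p300 KO level of 4.15 ± 0.654 CPM overlapped that of DMSO (1.17 times it). For TAS1R3, the p300 KO and degrader levels, 18.3 ± 2.17 and 16.1 ± 2.56 CPM, overlapped each other between NTC above and DMSO below. TAFA5 likewise was highest in NTC and lowest in DMSO, and its middle levels, 6.16 ± 1.53 CPM with the degrader and 5.46 ± 0.398 CPM in the p300 KO, also overlapped. The p300 KO level thus remained 3.47 times that of DMSO for TAS1R3 and 3.21 times for TAFA5. DMBT1 had no overlapping neighbours, with 30.1 ± 1.75 CPM in the p300 KO, then NTC, DMSO and the degrader at 0.374 ± 0.374 CPM. Its p300 KO level was 80.6 times its degrader level, and its NTC level was 12.4 times its DMSO level.

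Per kilobase of exon, which allows genes to be compared, TAS1R3 was the highest of the 4 in every group. Its mean was 4.69 RPKM with the degrader, 1.53 in DMSO, 5.33 in the p300 KO and 8.83 in NTC. DMBT1 was the lowest with the degrader and in DMSO, at 0.0463 and 0.176 RPKM, but second to TAS1R3 in the p300 KO at 3.73 RPKM. Over all libraries the mean levels stood at percentiles 34.6 (DHRS2), 66.7 (TAS1R3), 44.3 (TAFA5) and 41.3 (DMBT1) of 18068 genes kept in the fit on all libraries. They were thus genes of low to middle expression.

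Opposite calls were the rarer outcome. Of 15443 genes tested in both comparisons, 226 were called in both, 180 with the same sign (1.17%) and 46 with opposite signs (0.298%). Of the 46, 27 were higher with the degrader and lower in the p300 KO, and 19 were the reverse. Ranked by the smaller of the absolute log2 fold changes, DHRS2 was 1st, DMBT1 4th, TAFA5 7th and TAS1R3 9th of the 46, whose median by that measure was 0.48. The genes were named for this pattern, so these ranks describe the choice. IFIT3, an interferon-induced gene at rank 2, was not named by the rule used here because of its low level and is given for completeness, with −1.39 for the degrader and 0.89 for the p300 KO.

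The other well measured genes near them were of several kinds. Higher with the degrader and lower in the p300 KO were MB, the oxygen-binding myoglobin (log2 fold changes 0.76 and −1.05), TLNRD1 (0.85 and −0.72), which encodes an actin-bundling protein, and TMEM121 (1.13 and −0.68). Lower with the degrader and higher in the p300 KO were MT1E, a metal-binding metallothionein (−1.09 and 0.88), ALOX12, a lipoxygenase (−1.03 and 0.64), IGKJ3, a joining segment of the immunoglobulin kappa locus (−1.42 and 0.65), and DDIT4, an inhibitor of mTORC1 (−2.30 and 0.64). The degrader call was lost for MB, TLNRD1 and TMEM121 in all 7 leave-outs that keep degrader replicate 2, and the p300 KO call for DDIT4 in all 7 that keep p300 KO replicate 1. ALOX12 lost the degrader call without DMSO replicates 1, 3 or 4 or degrader replicates 1, 3 or 4, and the p300 KO call without NTC replicates 1, 2 or 3 or p300 KO replicate 4.

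The size of this group, and the place of the 4 genes in it, depended on the setting. It was 894 of 15782 genes (5.66%) without degrader replicate 2 and p300 KO replicate 1, with 1862 genes of the same sign. In that larger group DHRS2 ranked 3rd, DMBT1 46th, TAFA5 51st and TAS1R3 80th. It was 3 when libraries were scaled by total counts, where 19 genes were called higher and 145 lower with the degrader, in place of 260 and 495, and 61 higher and 1204 lower in the p300 KO, in place of 1081 and 1863. The signs of the 4 genes in both comparisons were the same under each scaling, filter, tool and leave-out that was run, but not their calls. Under total count scaling DHRS2, TAS1R3 and TAFA5 left the opposite-sign group, and with the replicate number as a block all 4 left it. DMBT1 also left it in the 7 leave-outs of degrader or DMSO libraries that keep degrader replicate 2.

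**Figure D3:**
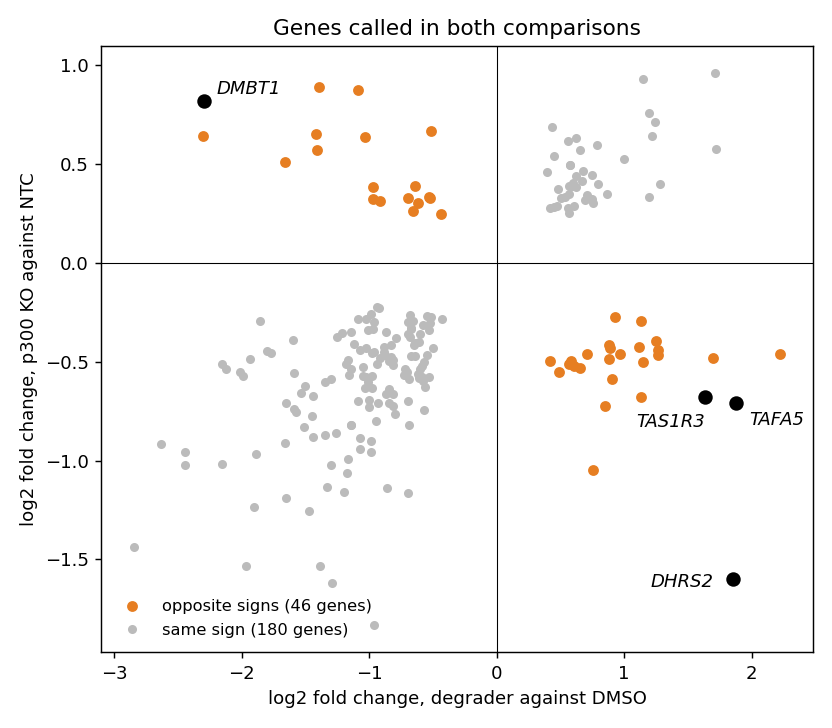
Log2 fold change with the degrader (x axis) and in the p300 KO (y axis) for the 226 genes called in both comparisons. Orange points have opposite signs (46 genes), grey points the same sign (180 genes), and the 4 named genes are black. DHRS2 lies at 1.85 and −1.60, farthest from both axes at the lower right.

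**Figure D4:**
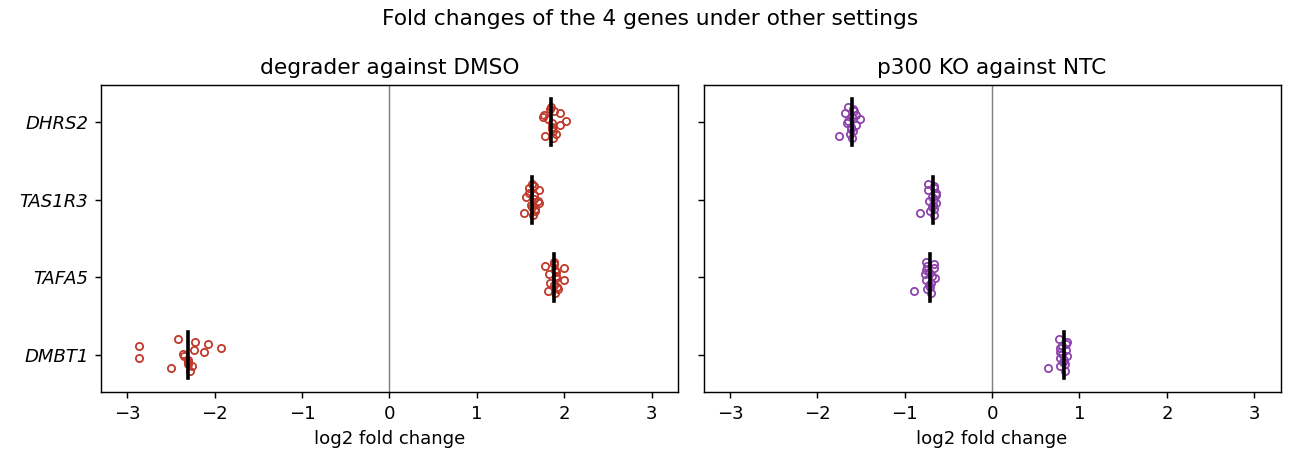
Log2 fold change of each gene (x axis) as reported (black bar) and under each other setting or with a library left out (open points), for the degrader at left and the p300 KO at right. No point crosses 0; the widest spread is that of DMBT1 with the degrader, where leaving out single libraries gave −2.86 to −1.93.

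Genes with the most similar level over the 16 libraries were found by the Pearson correlation of log2 CPM, which mixes the differences between experiments with those within them. TAS1R3 and TAFA5 were close to each other (0.975, and 0.60 after the group means were removed). After the same step DHRS2 gave 0.64 with TAS1R3 and 0.29 with TAFA5, and DMBT1 gave −0.67 to −0.77 with the others. These values include degrader replicate 2, the lowest degrader library for DHRS2, TAS1R3 and TAFA5 and the highest for DMBT1. FCRL2, an Fc receptor-like protein of B cells, was close to both TAS1R3 and TAFA5 over the 16 libraries (0.981 and 0.974). Genes found this way follow a pattern that was itself chosen, so their fold changes are a description. FCRL2 had a log2 fold change of 1.26 with the degrader and −0.44 in the p300 KO. FURIN, a protease of the secretory pathway (1.26 and −0.47), and OAS1, an interferon-induced antiviral enzyme (1.25 and −0.40), followed TAS1R3 with correlations of 0.968 and 0.960. FURIN and OAS1 each lost the p300 KO call in 4 leave-outs. ANXA6, an annexin, was like TAFA5 over the libraries (0.939) although its p300 KO value was 0.03, which changed sign under other settings.

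DHRS2 was most like CDR2L (0.929) and TLNRD1 (0.927), and EXT1, an enzyme of heparan sulfate synthesis, followed with 0.904. DMBT1 was most like AKNA (0.991) and ABCA1, a cholesterol exporter (0.984). The log2 fold changes were −0.32 with the degrader and 0.11 in the p300 KO for AKNA, and −0.62 and 0.24 for ABCA1. AKNA was called in neither comparison. ABCA1 was called only with the degrader, a call lost in 7 leave-outs.

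In the fits with every library, the relatives and partners of DHRS2 mostly did not share its pattern. Of 24 other SDR reductases tested with the degrader, edgeR called none higher and 1 lower (background 1.64% higher and 3.12% lower), with 2 higher and 1 lower at an unadjusted p under 0.05 and 1 higher and 1 lower by DESeq2. The lower one was RDH13, a retinol dehydrogenase, with −0.53. That call was lost without DMSO replicates 1, 3 or 4 or degrader replicates 1, 3 or 4. Of the same family, 3 of 24 rose and 2 fell in the p300 KO (background 6.23% and 10.7%). DHRS7B, of ether lipid synthesis, rose by 0.42 (adjusted p = 0.0118), as did HSD17B4 (0.33), of peroxisomal fatty acid oxidation, and PECR, of fatty acid elongation (0.25, adjusted p = 0.0496), while HPGD, which inactivates prostaglandins, fell by 0.65 (adjusted p = 0.00573) and RDH10, a retinol dehydrogenase, by 0.47. HSD17B4 lost its call without NTC replicate 1 or NTC replicate 4, and PECR whenever an NTC library or any p300 KO library but replicate 1 was left out. The median log2 fold change of the family was 0.14 with the degrader and 0.01 in the p300 KO, against 0.05 and 0.02 for all genes. In the test of the p300 KO effect minus the degrader effect, 0 of 25 were higher and 1 lower (background 2.82% and 3.76%). Without both mitochondria-rich libraries that test called 1 of 25 higher and 9 lower, against 2824 and 3077 of all 18432 genes. The count for this pattern thus depended on those libraries. Without degrader replicate 2, 7 rose and 1 fell with the degrader, and without p300 KO replicate 1, 6 of 25 rose and 3 fell in the p300 KO. In those fits 18.2% of all genes were called higher and 20.3% lower with the degrader, and 19.1% higher and 21.8% lower in the p300 KO, which is the background for each count below without the mitochondria-rich libraries.

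None of 12 genes of the p53 and MDM2 axis was called in either comparison by edgeR. At an unadjusted p under 0.05, 1 was higher and 1 lower with the degrader and 4 higher and 1 lower in the p300 KO, and DESeq2 called 1 lower with the degrader and 2 higher and 1 lower in the p300 KO. MDM2, the ubiquitin ligase that DHRS2 is reported to bind, had 407 to 506 CPM with the degrader and 371 to 418 CPM in DMSO. With the mitochondria-rich libraries left out, 3 rose and 3 fell with the degrader (background 18.2% and 20.3%), and 5 rose and 2 fell in the p300 KO (19.1% and 21.8%). The median log2 fold change of the 12 was 0.14 with the degrader and 0.18 in the p300 KO.

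Among 8 tested genes known to respond to histone deacetylase inhibitors, as DHRS2 does, edgeR called 2 higher and none lower with the degrader (2 higher and 1 lower at an unadjusted p under 0.05, and the same by DESeq2). TXNIP, which binds thioredoxin, rose by 1.17 ± 0.21 with the degrader (adjusted p = 0.0186), a call lost in the 7 leave-outs that keep degrader replicate 2. In the p300 KO edgeR called 2 of 10 lower and none higher (3 higher and 2 lower at an unadjusted p under 0.05, 2 higher and 2 lower by DESeq2). HSPA2, a chaperone, fell by 0.80 (adjusted p = 0.0139), and TUBB3, a tubulin with 51 counts in the p300 KO and 135 in NTC, by 1.18, a call lost in 6 leave-outs, all but those of p300 KO replicates 1 and 4. Without the mitochondria-rich libraries the counts were 4 higher and 1 lower with the degrader and 5 higher and 3 lower in the p300 KO. The medians were 0.18 with the degrader and 0.02 in the p300 KO.

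The partners of TAS1R3 in taste receptors were near the detection limit. TAS1R1, its partner in the umami receptor, had 1 count in all with the degrader, 4 in DMSO, 13 in the p300 KO and 30 in NTC. TAS1R2, its partner in the sweet receptor, had 1 count, in NTC, and GNAT3, the taste G protein, had 0 in every library. Only 9 of 28 genes of taste receptors and their signalling passed the filter in each comparison; none was called by edgeR with the degrader (1 higher and 2 lower at an unadjusted p under 0.05, 1 higher by DESeq2), and 1 fell in the p300 KO. That was CALHM3, a subunit of the channel that releases ATP from taste cells, with 11.9 to 17.3 CPM in the p300 KO, against 18.4 to 19.9 CPM in NTC (log2 fold change −0.38 ± 0.10, adjusted p = 0.0306). With the degrader CALHM3 had 2.59 to 5.08 CPM, against 2.04 to 2.44 CPM in DMSO (0.86 ± 0.21, adjusted p = 0.0594), and its p300 KO effect was lower than its degrader effect by test, at −1.30 ± 0.22 (adjusted p = 0.00196; 6.58% of 18068 genes were called in that contrast, 2.82% higher and 3.76% lower). Its p300 KO call was lost in each leave-out of an NTC library and of p300 KO replicates 2 and 4. The medians of the taste genes were 0.01 with the degrader and −0.18 in the p300 KO, and without the mitochondria-rich libraries 1 rose and 3 fell with the degrader and 3 fell in the p300 KO.

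Of 29 genes of amino acid sensing to mTORC1 tested with the degrader, edgeR called none higher and 2 lower (7 higher and 2 lower at an unadjusted p under 0.05, 3 higher and 2 lower by DESeq2). DDIT4 fell by 2.30 ± 0.23 (adjusted p = 0.00179) and SLC7A5, the light chain of a leucine transporter, by 0.65 ± 0.14 (adjusted p = 0.0367), a call lost in the 7 leave-outs that keep degrader replicate 2. Of 30 tested in the p300 KO, 1 rose, DDIT4, and 3 fell: SLC7A5 by 0.41, its heavy chain SLC3A2 by 0.46 and the glutamine transporter SLC1A5 by 0.59. Leaving out the mitochondria-rich libraries, 12 rose and 4 fell with the degrader (background 18.2% and 20.3%), and 7 rose and 7 fell in the p300 KO (19.1% and 21.8%). The medians of the list were 0.13 and 0.03.

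TAFA5 was the best measured gene of its family. TAFA4 had 0 counts in every library, TAFA1 and TAFA3 had at most 9 counts in any group, and TAFA2 had 35 counts with the degrader, 36 in DMSO, 57 in the p300 KO and 110 in NTC. Of the 19 TAFA relatives, neurexins, neuroligins and reported receptors, 3 passed the filter with the degrader, with no call by edgeR or DESeq2 and none at an unadjusted p under 0.05, and 4 in the p300 KO. NLGN2, a neuroligin, which binds neurexins, fell there to 25.3 to 33.2 CPM, against 44.5 to 47.9 CPM in NTC (log2 fold change −0.58 ± 0.07, adjusted p = 0.00103). The medians of the genes that passed were −0.24 with the degrader and −0.34 in the p300 KO, and without the mitochondria-rich libraries 1 fell with the degrader and 2 in the p300 KO.

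Of the SRCR proteins related to DMBT1, 5 of 19 passed the filter with the degrader, with no call by edgeR (1 higher and 1 lower at an unadjusted p under 0.05, 1 lower by DESeq2), and 10 in the p300 KO, where 1 rose and 3 fell. MARCO, a macrophage scavenger receptor, fell by 1.39 ± 0.14 (adjusted p = 0.000368), SSC4D by 1.43 and the serine protease TMPRSS3 by 1.61, each the reverse of DMBT1, while CD6, a lymphocyte receptor, rose by 0.83, a call lost in each leave-out of an NTC library and of p300 KO replicates 2 and 3. All 4 were at low levels, up to 3.54 CPM in any library. Of the ligands of DMBT1 and genes of mucosal defence, edgeR called 2 of 6 lower and none higher in the p300 KO (2 lower and 0 higher at an unadjusted p under 0.05, 2 lower and 1 higher by DESeq2). MUC1, a membrane mucin, fell by 2.00 ± 0.22 (adjusted p = 0.000572) and TLR4, the endotoxin receptor, by 0.85. None of 5 was called with the degrader by edgeR or DESeq2, and 1 was lower at an unadjusted p under 0.05. The medians were −0.45 with the degrader and −0.51 in the p300 KO for the SRCR proteins, and 0.13 and −0.02 for the ligands and defence genes. Without the mitochondria-rich libraries 1 SRCR gene fell with the degrader, and 1 rose and 4 fell of 12 in the p300 KO; of the ligands and defence genes 1 rose and 1 fell with the degrader, and 2 fell in the p300 KO.

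Epithelial markers, listed because DMBT1 is known from epithelia, summed to 14.3 to 17.4 CPM with the degrader and 14 to 20.2 CPM in DMSO, and to 21.7 to 24.2 CPM in the p300 KO and 33.6 to 40.3 CPM in NTC. Their sum was thus lower in the p300 KO, where DMBT1 was higher. The largest part of that difference was MUC1, with a mean of 3.93 CPM in the p300 KO and 16.7 CPM in NTC. Means went the other way for KRT18 (12 and 10.5 CPM), CLDN7 (2.33 and 2.05 CPM) and EPCAM (0.0897 and 0.0779 CPM). KRT19 was at 0 in all libraries. Of 7 tested in the p300 KO, edgeR called 2 lower, MUC1 and CDH1 (−1.48), and 0 higher. At an unadjusted p under 0.05, 1 was higher and 2 were lower, and DESeq2 called 0 higher and 2 lower. Neural markers, listed because TAFA5 is known from brain, summed to 7.43 to 11.5 CPM with the degrader and 6.06 to 9.1 CPM in DMSO, and to 7.71 to 9.67 CPM in the p300 KO and 10.3 to 11.8 CPM in NTC, with NEFL at 0 in all libraries and TUBB3 the called member in the p300 KO. Their part in the values of DMBT1 and TAFA5 was not tested.

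Of 12 plasma cell markers, 1 rose and 2 fell with the degrader by edgeR (background 1.64% and 3.12%). In the p300 KO edgeR called none higher and 6 lower (background 6.23% and 10.7%). At an unadjusted p under 0.05, 2 were higher and 6 lower there, and DESeq2 called 3 higher and 6 lower. IRF4, a transcription factor of plasma cells, fell in both comparisons (−0.88 and −0.45). POU2AF1 also fell in both, with its degrader call lost in 7 leave-outs. The marker that rose with the degrader was FGFR3, with a mean of 121 CPM against 54.1 CPM in DMSO. Its means in the p300 KO and NTC were 114 and 89.8 CPM. Markers of T and NK cells summed to 16.3 to 30 CPM with the degrader and 44.1 to 49 CPM in DMSO. They summed to 50.3 to 60.8 CPM in the p300 KO and 70.4 to 77.5 CPM in NTC. Most of the sum in the first experiment was CD3E, with means of 20.5 CPM with the degrader and 41.1 CPM in DMSO, while CD3D had 0 counts there. In NTC it was mainly CD3E (23.5 CPM), GNLY (19.8 CPM), TRAC (19.3 CPM) and NKG7 (11.1 CPM). Of 4 tested, CD3E fell with the degrader and TRAC and NKG7 in the p300 KO. The CD3E call was lost in the 7 leave-outs that keep degrader replicate 2, and that of NKG7 in all p300 KO and NTC leave-outs but those of p300 KO replicate 1 and NTC replicate 4. Monocyte and macrophage markers summed to at most 16.9 CPM in any library, and 2 of 3 tested, MARCO and CSF1R, fell in the p300 KO. Of 6 earlier B cell markers tested, none was called with the degrader by edgeR (2 higher and 1 lower at an unadjusted p under 0.05, 1 higher by DESeq2), and PAX5, MS4A1 and CD22 fell in the p300 KO, the last with its call lost in the 7 leave-outs that keep p300 KO replicate 1. Of 20 histone acetyltransferases and deacetylases, none was called with the degrader by edgeR (4 higher and 1 lower at an unadjusted p under 0.05, 2 higher and 1 lower by DESeq2). In the p300 KO HDAC7 (0.80), KAT7 (0.33), HDAC6 (0.32) and CREBBP (0.32) rose and EP300 fell (−1.25). HDAC6 lost its call without NTC replicates 1, 3 or 4 or p300 KO replicate 2, and KAT7 in all leave-outs but those of p300 KO replicates 1 and 2. Without the mitochondria-rich libraries 4 of the 20 rose and 3 fell with the degrader, and 9 rose and 5 fell in the p300 KO; of the plasma cell markers 4 rose and 3 fell with the degrader, and 3 rose and 7 fell in the p300 KO. Of 6 earlier B cell markers, 1 then rose and 2 fell with the degrader, and 5 fell in the p300 KO. Of 4 T and NK cell markers, 2 fell with the degrader and 3 in the p300 KO. Monocyte and macrophage markers had 0 of 2 called with the degrader and 2 of 3 lower in the p300 KO. Epithelial markers had 1 of 5 lower with the degrader and 3 of 7 in the p300 KO, and neural markers 0 of 3 and 1 of 5.

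In the fits with every library, most tested neighbours within 100 kb were not called. Of 45 genes within 100 kb of the 4 genes, 24 were tested with the degrader and 25 in the p300 KO; TAFA5 and DMBT1 had no tested neighbour. Over all genes tested in these fits, 1.64% were called higher and 3.12% lower with the degrader. Shares in the p300 KO were 6.23% higher and 10.7% lower. With the degrader 1 neighbour rose, VWA1 beside TAS1R3 (1.33, adjusted p = 0.0449), at a mean level of 0.975 CPM and with its call lost in the 7 leave-outs that keep degrader replicate 2. Beside the genes, 2 rose in the p300 KO, CCNL2, a cyclin of splicing (0.58), and AP1G2, an adaptor subunit (0.35), and 5 fell: MXRA8 (−0.99), THTPA (−0.62), SCNN1D (−0.60), B3GALT6 (−0.37) and MRPL20 (−0.23). AP1G2 lost its call without NTC replicate 1, B3GALT6 without NTC replicates 1 or 3, and MRPL20 in all leave-outs but those of p300 KO replicates 1 and 3. DVL1 on the opposite strand shares 31 of 3433 exonic bases with TAS1R3 and was not called (−0.37 with the degrader and −0.04 in the p300 KO). Whether counting used strand is not stated in the sources used here, so reads in that stretch could belong to either gene. The stretch of chromosome 22 from EP300 to the end of the long arm holds TAFA5. There 3 of 152 tested genes rose and 35 fell in the p300 KO (median −0.14, background 6.23% and 10.7%). With the degrader 1 of 140 rose and 4 fell there (median −0.04, background 1.64% and 3.12%). Without p300 KO replicate 1, 14 of 155 rose and 54 fell there (background 19.1% and 21.8%), and without degrader replicate 2, 22 of 143 rose and 36 fell with the degrader (18.2% and 20.3%). Of the 19 tested neighbours of TAS1R3, 6 rose and 4 fell with the degrader without those libraries, and 1 rose and 7 fell in the p300 KO.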

How the data were processed

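The 16 libraries of NCI-H929 bulk RNA each came with a table of gene counts. The deposited counts are whole numbers per gene, 57500 genes per library, not normalized. The build was GRCh38, and the tools named are Subread 1.5.2 (featureCounts), STAR 2.5.2b, DESeq2 1.16.1 and Trimmomatic 0.36, per the submitters' processing notes; whether strand was used and which annotation release was used were not stated. Symbols were found for 40907 identifiers, and 56898 identifiers matched GENCODE 29.

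Counts were tested with edgeR 4.0.16 (R 4.3.3) by its quasi-likelihood test after filterByExpr and TMM scaling. Each experiment was fitted on its own 8 libraries, and the difference of effects on all 16; a call means an adjusted p (Benjamini-Hochberg) below 0.05. The SE of a log2 fold change is its size divided by the square root of F. Levels in CPM are scaled by TMM over 16 libraries. Depth was at least 12.6 M counts (M is mega), and intervals and limits cover counting error only. No pair of libraries within a group was a duplicate (chi-square per degree of freedom at least 2.97), and pairs across groups were not checked. The scripts were tested on simulated data.

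The 4 genes and all lists were chosen with earlier results of these data known. Named genes were the 4, EP300 and CREBBP, up to 4 called genes per list and comparison by smallest p, tested neighbours within 100 kb, the 5 most similar genes of each over the libraries, and the 10 opposite genes with the largest smaller fold change, both with an average log2 CPM of at least 1. Genes named at low counts, and those in lists of 5 or fewer calls beyond this rule, were chosen after their values were seen. Other settings were RLE and total count scaling, no filter, DESeq2 1.42.0, mitochondrial genes removed, a replicate block, 1 fit on all libraries and leave-outs. Same-numbered libraries did not deviate together. A mitochondria-rich library in each treated group weighs on that check, so it cannot exclude pairing by replicate number. A list gene is counted but not reported here by name.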

Additional observations from a re-analysis of the deposited data

Results flagged for a closer look

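In 24 groups of 4 libraries checked for a value far from the others, 3 were flagged, and chance flags about 1 in 20 groups. TAFA5 in DMSO replicate 3 stood at 1.5 CPM, below the other DMSO libraries at 1.74 to 1.79 CPM, a small gap in absolute terms. EP300 in degrader replicate 2 stood at 151 CPM, against 53.1 to 55.3 CPM in the other degrader libraries. CREBBP in degrader replicate 2 stood at 71.2 CPM, against 39.3 to 40.8 CPM in the other degrader libraries. Degrader replicate 2 is the library with 64.9% mitochondrial counts; its part in these values was not tested.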

How the results depend on the processing

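In the degrader and p300 KO comparisons, RLE scaling and removal of mitochondrial genes kept every count within 1.5 times and the opposite-sign count at 46. Total count scaling moved the median of all genes to −0.09 with the degrader (0.05 as reported) and to −0.14 in the p300 KO (0.02 as reported). Under it 164 genes were called with the degrader, 1265 in the p300 KO, 319 in the difference of effects and 3 with opposite signs, with 2 and 17 list genes called, and the p300 KO values were −0.83 for TAS1R3, −0.89 for TAFA5 and 0.64 for DMBT1. AKNA (−0.07), ATOSB (−0.04), PTPN18 (−0.05) and ANXA6 (−0.13) then changed sign in the p300 KO; ANXA6 also did with no filter (−0.00), in leave-outs of 1 library (−0.01 to 0.07, the lowest without NTC replicate 3) and in 1 fit on all libraries (−0.02), and none was called. With no filter on low counts, 394 genes were called with the degrader, 585 in the difference and 23 with opposite signs, with 5 list genes with the degrader. DESeq2 called 1796 with the degrader, 2095 in the difference and 151 with opposite signs, with 20 list genes with the degrader. In 1 fit on all 16 libraries 2294 genes were called with the degrader and 1484 in the p300 KO, with 24 and 20 list genes.

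Without degrader replicate 2 and p300 KO replicate 1 together, 6278 genes were called with the degrader, 7246 in the p300 KO, 5901 in the difference and 894 with opposite signs, with 62 and 84 list genes. Leaving out 1 library at a time gave 197 (without DMSO replicate 4) to 6278 (without degrader replicate 2) genes with the degrader and 1542 (without NTC replicate 4) to 7246 (without p300 KO replicate 1) in the p300 KO. It gave 766 (without NTC replicate 4) to 4611 (without degrader replicate 2) in the difference, and 14 (without DMSO replicate 4) to 338 (without degrader replicate 2) with opposite signs, which DMBT1 left in the 7 leave-outs of the first experiment that keep degrader replicate 2. List genes ranged from 4 to 62 with the degrader and from 25 to 84 in the p300 KO. With the replicate number as a block, 24 genes were called with the degrader, 1304 in the p300 KO and 715 in the difference. Under the block 1 gene had opposite signs, and 0 and 24 list genes were called. In their deviations from group means, same-numbered libraries correlated from −0.35 to 0.08 in the first experiment. A mitochondria-rich library in each treated group weighs on those deviations, so they cannot settle whether the numbers pair libraries. The cause of the moves in these counts was not tested. The depth limits DMBT1 with the degrader, at 2 to 5 counts per library.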
